A study of Mus musculus with 23 samples.

Results

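*Dbp*, *Tef*, *Hlf* and *Nfil3* encode the basic leucine zipper (bZIP) factors through which the circadian clock passes its rhythm to other genes. All probes of these genes on the array were taken, whatever their values. They are 5 probes of 4 genes, with 1 probe each for *Dbp*, *Hlf* and *Nfil3* and a pair for *Tef*, out of 25697 probes and 16593 gene symbols. Transcripts of *Bhlhe40* KO and WT brains were measured by region, in hippocampus, cortex and cerebellum, on Illumina mouse BeadChips, 1 array for each RNA sample. The 23 arrays fell into 6 groups, with 4 KO and 4 WT arrays in hippocampus, 4 KO and 4 WT arrays in cortex, and 4 KO and 3 WT arrays in cerebellum. A further WT cerebellum sample, removed by the authors, was not used here. The KO is constitutive, so that all cells lacked the gene, and both genotypes were untreated male C57BL/6 congenic mice aged 3 to 5 months, fasted overnight and dissected from late morning to early afternoon. The hour at which each mouse was dissected is not given in the sources used here.

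CLOCK and BMAL1 (the product of *Arntl*) activate transcription from E-boxes in the first limb of the clock, and BHLHE40, also called DEC1, is a repressor that binds E-boxes itself. *Dbp* is a classical E-box target. DBP, TEF and HLF form the PAR family, named for a domain rich in proline and acidic amino acids, and activate genes through D-boxes. NFIL3, also called E4BP4, binds the same D-boxes and represses. *Nfil3* itself carries elements on which the REV-ERB repressors and the ROR activators compete. In liver, DBP and NFIL3 peak at opposite times of day. In the mouse brain the PAR factors are known for keeping up pyridoxal kinase, and mice without all of them have seizures.

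Windows around start sites of *Tef* and *Nfil3* carry the letters of elements named above. RefSeq windows on GRCm38.p6, which run over 250 bases before and 50 bases after a start, were found for all 4 genes. Each was searched on both strands for the E-box CACGTG, the E′-box CACGTT, the D-boxes TTATGTAA and TTACGTAA, and the REV-ERB and ROR cores TAGGTCA and TGGGTCA. None of these overlaps another in the windows shown. They are shown because *Tef* and *Nfil3* had the largest differences between KO and WT, each with an element of a different limb of the clock, and the capitals mark the match.
*Tef*, upstream start, chr15:81802423-81802722, plus strand: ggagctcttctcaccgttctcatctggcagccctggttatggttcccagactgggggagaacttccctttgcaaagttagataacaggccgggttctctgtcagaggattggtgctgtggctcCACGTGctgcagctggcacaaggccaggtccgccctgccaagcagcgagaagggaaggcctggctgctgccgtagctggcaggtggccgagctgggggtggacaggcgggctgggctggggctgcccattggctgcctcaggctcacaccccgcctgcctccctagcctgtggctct
*Tef*, downstream start, chr15:81811164-81811463, plus strand: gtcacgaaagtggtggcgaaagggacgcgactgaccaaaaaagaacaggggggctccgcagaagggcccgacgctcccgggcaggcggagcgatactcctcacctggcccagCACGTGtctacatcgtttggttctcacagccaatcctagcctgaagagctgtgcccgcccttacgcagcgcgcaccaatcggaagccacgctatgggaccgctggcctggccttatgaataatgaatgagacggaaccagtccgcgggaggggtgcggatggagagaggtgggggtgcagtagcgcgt
*Nfil3*, chr13:52980990-52981289, minus strand: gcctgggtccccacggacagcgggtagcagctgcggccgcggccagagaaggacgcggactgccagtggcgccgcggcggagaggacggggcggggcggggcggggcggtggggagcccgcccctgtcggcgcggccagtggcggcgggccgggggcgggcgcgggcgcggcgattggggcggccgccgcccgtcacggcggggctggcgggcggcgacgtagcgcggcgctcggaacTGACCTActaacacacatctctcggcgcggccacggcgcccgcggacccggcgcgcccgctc

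The CACGTG of *Tef* began at base -127 of the upstream start and at base -138 of the downstream start, where -1 is the base just before the start. This E-box was present in 7.15% of all 32851 windows. In the *Nfil3* window TAGGTCA lay on the strand opposite to the one shown, which itself reads TGACCTA from base -12. That core was held by 2.61% of all windows. The *Nfil3* gene runs to chr13:52982878, beyond this window on the upstream side. The start shown therefore lies inside the gene, and the bases around its upstream end were not searched. The *Dbp* window (chr7:45704997-45705296, plus strand) and the *Hlf* window (chr11:90390868-90391167, minus strand) held none of the letters searched, which says only that they are not in those 300 bases. The E′-box was found in 4.68% of all windows, TTATGTAA in 0.938%, TTACGTAA in 0.119% and TGGGTCA in 3.98%, and none of them in a window of the 4 genes.

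The share of probes above the array's background, called detected at a detection p under 0.05, was 50.9% to 55.5%, and the median bead signal was 164.4 to 267.9. Signals were not background-subtracted, so a probe near the median signal carries little but background. Levels below are log2 signals normalized within each array, with 0 at the mean of all probes of the array, and are not compared between probes. The targeted gene followed the labels: *Bhlhe40* signals were 227.7 to 465.4 in KO and 2756.7 to 4357.5 in WT hippocampus, 210.3 to 260.6 in KO and 4156.4 to 4633.3 in WT cortex, and 331.7 to 485.8 in KO and 2634.4 to 3819.6 in WT cerebellum. In 1 of the 23 arrays, KO cortex replicate 3, the mean correlation was higher with the other genotype of its tissue (0.9946) than with its own group (0.9937). Choroid plexus, the epithelium that lines the ventricles and makes cerebrospinal fluid, differed between the genotypes. Of its 9 markers 7 had a probe, and their summed signal was 39699 to 63322.8 in KO and 2357.8 to 33408.8 in WT hippocampus, 1529.6 to 3985.6 in KO and 1638.8 to 11026 in WT cortex, and 54219.6 to 65201.5 in KO and 12660 to 28803.7 in WT cerebellum. All 7 were higher at an adjusted p under 0.05 in KO hippocampus and 6 of 7 in KO cerebellum, against 0 of 4 tested in KO cortex, where *Folr1*, *Otx2* and *Aqp1* were detected in no KO array. Of the markers of the dissected regions, all 5 of cortex with a probe were detected in every cortex array of both genotypes. Of cerebellum 6 of 8 were detected in every cerebellum array. Of hippocampus 3 of 6 were detected in every KO and 4 of 6 in every WT hippocampus array. These counts did not single out cortex or hippocampus. All 5 cortex markers were also detected in every hippocampus array, and 4 of 6 hippocampus markers in every KO cerebellum array. The summed signal of the cortex markers was 12350.6 to 17960.3 in KO and 16705.3 to 18015.9 in WT cortex. In hippocampus it was 5656 to 10009.7 in KO and 4933 to 8041.9 in WT mice. For the hippocampus markers it was 8316.1 to 12362.7 in KO hippocampus and 1992.4 to 2584.6 in KO cerebellum. Among the cerebellum markers, 1 of 6 tested was higher and 2 were lower in KO cerebellum, with a median of -0.13. Of the cell types there, microglia had a median of 0.20 (2 of 4 higher) and neuron -0.34 (1 of 3 higher, 1 lower). Endothelium had 1 of 4 higher and 1 lower, astrocyte 1 of 5 higher and oligodendrocyte 0 of 4, beside 33.8% of all probes called. In KO hippocampus microglia had 1 of 4 lower, neuron 1 of 3 lower and endothelium 1 of 4 higher, beside 11.3% of all probes. Cerebellum markers had 1 of 4 higher in KO hippocampus (median 0.33). In cortex no marker of these lists was called. For choroid plexus, fits with the level of its markers as a covariate, chosen after the data were seen, are given with the results below. The part of the other markers was not tested. In bulk tissue fewer cells of a type and less RNA per cell cannot be told apart.

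*Dbp* was higher in KO than in WT hippocampus and cerebellum, by 20.2% and 26.6%, and its difference in cortex, 12.1%, did not pass the test. DBP is the PAR activator with the strongest daily rhythm. In hippocampus the *Dbp* level was 3.79, 3.81, 3.95 and 3.66 in the KO mice, against 3.58, 3.42, 3.51 and 3.63 in the WT mice. The genotypes did not overlap, although the highest WT mouse lay within 0.03 of the lowest KO mouse in level. The raw *Dbp* signals behind these levels were 4307.4 to 6576.8 in KO and 2923.1 to 4702.2 in WT hippocampus, which overlapped. KO minus WT was 0.27 ± 0.08 on the log2 scale (SE, 95% interval 0.10 to 0.43, limma adjusted p = 0.0381). In cortex the level was 4.01, 3.91, 4.01 and 3.93 in the KO mice, against 3.64, 3.92, 3.78 and 3.86 in the WT mice. WT replicate 2 lay between the KO mice, and the difference was 0.16 ± 0.09 (SE, 95% interval -0.02 to 0.35, limma adjusted p = 0.588). The raw *Dbp* signals in cortex averaged 4485 in KO and 4583 in WT mice, and the KO mean was higher only after the arrays were scaled. In cerebellum the level was 3.97, 3.94, 4.01 and 4.13 in the KO mice, against 3.70, 3.50 and 3.83 in the WT mice. All KO mice were above all WT mice there, and the difference was 0.34 ± 0.10 (SE, 95% interval 0.13 to 0.55, limma adjusted p = 0.0134). The raw *Dbp* signals in cerebellum, 5823.1 to 8288.1 in KO and 3381.2 to 5266.2 in WT mice, did not overlap. The median signals of these arrays were 200.4 to 267.9 in KO and 172.6 to 218.5 in WT mice, so that raw signals also carry the brightness of the array.

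**Figure D1:**
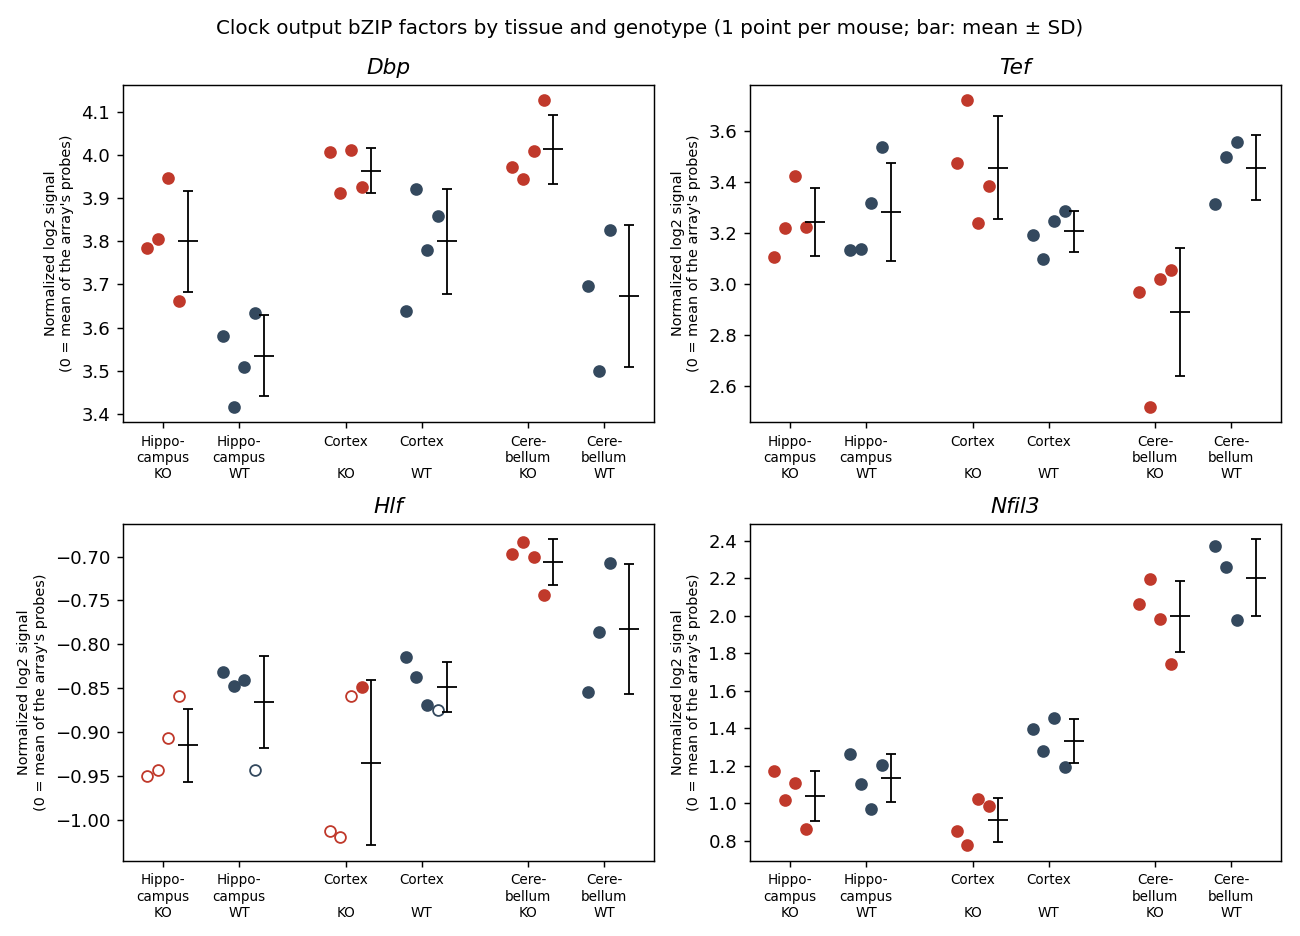
Normalized log2 signal of *Dbp*, *Tef* (its detected probe), *Hlf* and *Nfil3* in each mouse, by tissue and genotype, with the mean ± SD of each group beside its points. Filled points were detected at p under 0.05 and open points were not. The KO points of *Dbp* lie above all WT points in hippocampus and cerebellum, those of *Tef* below all WT points in cerebellum, and those of *Nfil3* below all WT points in cortex.

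Over the 3 tissues together, with the mouse as a random block, *Dbp* was 0.26 ± 0.05 higher in KO mice (SE, 95% interval 0.16 to 0.36, limma adjusted p = 0.000275). No difference of its KO effect between tissues passed the test. The differences were 0.10 (95% interval -0.14 to 0.34) for hippocampus minus cortex, 0.07 (-0.18 to 0.32) for cerebellum minus hippocampus and 0.18 (-0.07 to 0.43) for cerebellum minus cortex, so that the tissues may still differ by amounts as large as the effect itself. The hippocampus call was lost when any WT array, KO replicate 1 or KO replicate 3 was left out (adjusted p 0.0594 to 0.129), and the cerebellum call when WT replicate 2 was (0.25, adjusted p = 0.0857). With the level of the choroid plexus markers as a covariate, chosen after the data were seen, *Dbp* was 0.17 higher in KO hippocampus (adjusted p = 0.479), 0.60 in KO cerebellum (adjusted p = 0.214) and 0.22 over the 3 tissues (adjusted p = 0.0203).

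*Tef* fell by 32.4% in KO cerebellum relative to WT, and this effect differed from that in cortex. TEF is a PAR activator that shares the D-box targets of DBP. In cerebellum the level of its detected probe was 2.97, 2.52, 3.02 and 3.05 in the KO mice, against 3.31, 3.50 and 3.56 in the WT mice. The genotypes were separated by 0.26 at the nearest mice, and KO replicate 2 was the lowest. KO minus WT was -0.56 ± 0.12 (SE, 95% interval -0.81 to -0.32, limma adjusted p = 0.000862). The raw signals of this *Tef* probe, 2780.4 to 3997.7 in KO and 2842.8 to 4009.1 in WT cerebellum, overlapped, and the genotypes were apart only after the arrays were scaled. It was -0.55 after neqc background correction and -0.53 after quantile normalization. In cortex the *Tef* level was 3.47, 3.72, 3.24 and 3.39 in the KO mice, against 3.19, 3.10, 3.25 and 3.28 in the WT mice. Only KO replicate 3, the array that resembled the WT group, lay among the WT values. The difference was 0.25 ± 0.10 (SE, 95% interval 0.04 to 0.45, limma adjusted p = 0.449), and without that array it was 0.32 (adjusted p = 0.182). In hippocampus the *Tef* level was 3.11, 3.22, 3.42 and 3.22 in the KO mice, against 3.13, 3.14, 3.32 and 3.54 in the WT mice, which overlapped throughout. The difference there was -0.04 ± 0.09 (SE, 95% interval -0.24 to 0.16, limma adjusted p = 0.833).

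The KO effect on *Tef* was tested for a difference between tissues. Between cerebellum and cortex it differed by -0.81 ± 0.16 on the log2 scale (SE, 95% interval -1.14 to -0.49, limma adjusted p = 0.000392), with the KO values lower in cerebellum and the cortex difference in the other direction, where it did not pass alone. The difference of -0.53 between cerebellum and hippocampus (95% interval -0.85 to -0.20, adjusted p = 0.0845) and that of -0.29 between hippocampus and cortex (-0.60 to 0.03, adjusted p = 0.243) did not pass. Over the 3 tissues *Tef* averaged -0.12 ± 0.06 in KO minus WT (SE, adjusted p = 0.175). The contrast of cerebellum with cortex passed with any 1 mouse left out, at -0.60 without KO mouse 2 to -0.93 without KO mouse 3, and was -0.88 with the choroid plexus covariate (adjusted p = 0.00062). In cerebellum alone the covariate gave -0.86 (adjusted p = 0.0936), with a marker level that did not overlap between the genotypes.

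The other *Tef* probe, listed in the platform annotation against a different transcript record, was not well above background. Its signals were 174 to 238.2 in KO and 146.4 to 179.6 in WT hippocampus, 150.6 to 183.6 in KO and 163.7 to 186.1 in WT cortex, and 178 to 267.4 in KO and 160.4 to 207.2 in WT cerebellum. It was detected in 1 of 4 KO arrays in each tissue and in 0 of 4, 1 of 4 and 1 of 3 WT arrays of hippocampus, cortex and cerebellum. It did not pass the filter of 3 detected arrays in any tissue. Without a filter KO minus WT of this *Tef* probe was 0.04 in hippocampus, -0.01 in cortex and 0.03 in cerebellum (limma adjusted p = 0.761, 0.988 and 0.806), at a signal where a change would be understated. What is said of *Tef* therefore covers the transcript of 1 probe.

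*Nfil3* was the member with the lowest p in cortex, where KO minus WT came to -25.3%, but it did not pass the adjusted test in any single tissue. NFIL3 is the repressor of the group. In cortex the *Nfil3* level was 0.85, 0.78, 1.03 and 0.99 in the KO mice, against 1.39, 1.28, 1.46 and 1.19 in the WT mice. All KO mice were below all WT mice, also by raw signal, with 488.6 to 664.5 in KO and 772.1 to 926.8 in WT cortex. The median signals of these arrays were 170.8 to 196.2 in KO and 185 to 201.4 in WT cortex. In the other tissues the raw *Nfil3* signals overlapped and their means ran the other way, at 785.6 in KO and 728.3 in WT hippocampus and 1711 in KO and 1566 in WT cerebellum. KO minus WT was -0.42 ± 0.10 (SE, 95% interval -0.63 to -0.21, limma unadjusted p = 0.000458, adjusted p = 0.127), rank 51 of the 14163 probes tested there. In cerebellum the *Nfil3* level was 2.06, 2.20, 1.99 and 1.75 in the KO mice, against 2.38, 2.26 and 1.98 in the WT mice. WT replicate 3 lay among the KO mice, and the difference was -0.21 ± 0.11 (SE, 95% interval -0.44 to 0.03, limma adjusted p = 0.17), or -0.32 without that array (adjusted p = 0.046), and -0.12 without WT replicate 1 (adjusted p = 0.463) or KO replicate 4 (adjusted p = 0.433). In hippocampus the *Nfil3* level was 1.17, 1.02, 1.11 and 0.86 in the KO mice, against 1.26, 1.10, 0.97 and 1.20 in the WT mice. These overlapped, with a difference of -0.09 ± 0.09 (SE, 95% interval -0.29 to 0.10, limma adjusted p = 0.545). Over the 3 tissues together *Nfil3* was lower in KO mice by a log2 difference of -0.24 ± 0.06 (SE, 95% interval -0.36 to -0.12, limma adjusted p = 0.0038). Its KO effects did not pass a test of difference between tissues, at 0.33 for hippocampus minus cortex (95% interval 0.03 to 0.62, adjusted p = 0.157), -0.11 for cerebellum minus hippocampus (-0.42 to 0.20) and 0.21 for cerebellum minus cortex (-0.09 to 0.52). With the choroid plexus covariate the *Nfil3* difference over the 3 tissues was -0.22 (adjusted p = 0.0561), and in cortex alone it was -0.45 (adjusted p = 0.0796).

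*Hlf*, the third PAR activator, lay near background in all groups. Its probe was detected in 0 of 4 KO and 3 of 4 WT hippocampus arrays, 1 of 4 KO and 3 of 4 WT cortex arrays, and 4 of 4 KO and 3 of 3 WT cerebellum arrays. The *Hlf* signals were 167.3 to 240.2 in KO and 158.5 to 199.1 in WT hippocampus, 147.5 to 186.7 in KO and 180.3 to 189.7 in WT cortex, and 204 to 278.1 in KO and 181.5 to 208.1 in WT cerebellum. The genotypes overlapped in each tissue in normalized level. KO minus WT was -0.05 (95% interval -0.17 to 0.07) in hippocampus, -0.09 (-0.21 to 0.04) in cortex and 0.08 (-0.06 to 0.21) in cerebellum, with limma adjusted p of 0.618, 0.695 and 0.387. Since signals this low still hold the background, these log2 differences understate any change of the transcript. After neqc background correction they were -0.17, -0.29 and 0.15 (adjusted p = 0.574, 0.668 and 0.56), and no change of *Hlf* was detectable at this signal. Taking the array floor in place of the undetected KO hippocampus values, WT over KO was at least 1.00-fold, which sets no size.

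**Figure D2:**
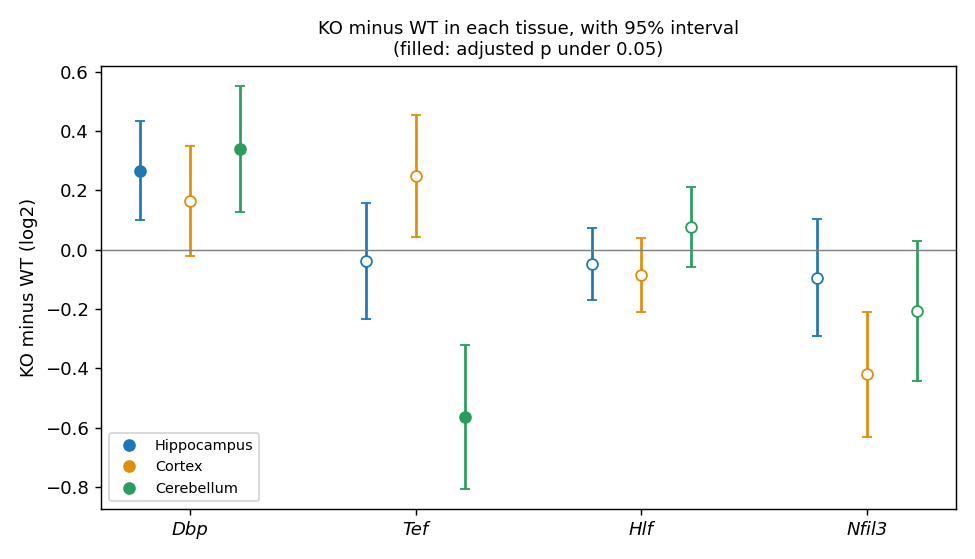
KO minus WT on the log2 scale for *Dbp*, *Tef*, *Hlf* and *Nfil3* in hippocampus, cortex and cerebellum, with the 95% interval from limma in each tissue. Filled points passed at an adjusted p under 0.05: *Dbp* at 0.27 in hippocampus and 0.34 in cerebellum, and *Tef* at -0.56 in cerebellum.

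Counted over the 4 probes tested in each tissue, 1 was higher in KO hippocampus, 1 was higher and 1 lower in KO cerebellum, and none passed in cortex. Of all probes tested, 11.3% passed in hippocampus, 0.191% in cortex and 33.8% in cerebellum, so that the counts of 1, 0 and 2 among 4 probes are read against a background of very different height. In cortex 2 of the 4, *Tef* and *Nfil3*, had an unadjusted p under 0.05, at ranks 643 and 51 of the 14163 probes tested. *Dbp*, at an unadjusted limma p of 0.0778, ranked 1874 there. The share of all probes with an unadjusted p under 0.05 is not given here. An unmoderated test also called 0 of the 4 in cortex, but it called only 2 of all probes there. A count of 0 among 4 therefore carries little information. The genotypes did not overlap for 1 of the 4 in hippocampus, 1 in cortex and 2 in cerebellum, against 16.4%, 4.17% and 38.2% of all probes tested. Over the 3 tissues 2 of 4 passed, *Dbp* upward and *Nfil3* downward, against 27.7% of the 12968 probes detected in every tissue. A difference of the KO effect passed for 4.44% of all probes between hippocampus and cortex, 1.42% between cerebellum and hippocampus and 30.9% between cerebellum and cortex, and among the members only for *Tef* between cerebellum and cortex.

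The members also differed in how their levels were ordered over the brain regions. *Nfil3* was highest in cerebellum in both genotypes. It was 1.94-fold higher in cerebellum than in hippocampus of KO mice (log2 0.96, 95% interval 0.75 to 1.17, limma adjusted p = 1.29e-09) and 2.13-fold higher than in cortex (1.09, 0.88 to 1.30, adjusted p = 5.78e-11). In WT mice these *Nfil3* contrasts were 2.10-fold (1.07, 0.84 to 1.30, adjusted p = 6.34e-10) and 1.83-fold (0.87, 0.65 to 1.10, adjusted p = 4.39e-08). Hippocampus and cortex did not differ beyond their spread, at 0.13 in KO (adjusted p = 0.31) and -0.20 in WT mice (adjusted p = 0.174). The mean *Nfil3* levels were thus in the order KO cortex (0.91 ± 0.12), KO hippocampus (1.04 ± 0.13), WT hippocampus (1.14 ± 0.13), WT cortex (1.33 ± 0.12), KO cerebellum (1.999 ± 0.19) and WT cerebellum (2.20 ± 0.21; SD, n = 4 and in WT cerebellum 3).

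*Tef* was lowest in KO cerebellum, and highest in WT cerebellum and KO cortex. Its mean level was 2.89 ± 0.25 in KO and 3.45 ± 0.13 in WT cerebellum, 3.24 ± 0.13 in KO and 3.28 ± 0.19 in WT hippocampus, and 3.45 ± 0.20 in KO and 3.21 ± 0.08 in WT cortex (SD, n = 4 and in WT cerebellum 3). Within KO mice *Tef* was lower in cerebellum than in cortex (-0.56, limma adjusted p = 3.68e-05) and than in hippocampus (-0.35, adjusted p = 0.00669), and the second of these calls was lost without KO mouse 2 (-0.24, adjusted p = 0.0659). Within WT mice *Tef* was 0.25 higher in cerebellum than in cortex (adjusted p = 0.0783) and 0.17 higher than in hippocampus (adjusted p = 0.219), neither past the threshold. Between hippocampus and cortex it differed by -0.21 in KO (adjusted p = 0.112) and 0.07 in WT mice (adjusted p = 0.674).

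From the highest, the mean *Dbp* level was 4.01 ± 0.08 in KO cerebellum, 3.96 ± 0.05 in KO cortex, 3.80 ± 0.12 in KO hippocampus, 3.80 ± 0.12 in WT cortex, 3.67 ± 0.17 in WT cerebellum and 3.53 ± 0.09 in WT hippocampus (SD, n = 4 and in WT cerebellum 3). In KO mice *Dbp* was 0.21 higher in cerebellum than in hippocampus (limma adjusted p = 0.0301), a call lost without KO mouse 1 (0.22, adjusted p = 0.0677), KO mouse 2 (0.24, adjusted p = 0.0502) or KO mouse 4 (0.13, adjusted p = 0.262). In WT mice hippocampus was lower than cortex by a log2 difference of -0.27 (adjusted p = 0.0192), lost without WT mouse 2 (-0.19, adjusted p = 0.185) or WT mouse 3 (-0.26, adjusted p = 0.0526). The other *Dbp* contrasts were -0.16 for hippocampus minus cortex and 0.05 for cerebellum minus cortex in KO mice, and 0.14 for cerebellum minus hippocampus and -0.13 for cerebellum minus cortex in WT mice, with adjusted p of 0.107, 0.624, 0.2 and 0.252. *Hlf* in KO mice was detected in 4 of 4 cerebellum, 0 of 4 hippocampus and 1 of 4 cortex arrays. With the array floor in place of the hippocampus values below it, its level was at least 1.12-fold higher in cerebellum than in hippocampus (limma adjusted p = 0.00127 for the measured values), and in WT mice its contrasts were -0.02 to 0.08. Such contrasts are common here: of all probes, 45.1% differed between hippocampus and cortex, 55.1% between cerebellum and hippocampus and 62.8% between cerebellum and cortex of KO mice, and 22.8%, 52.4% and 49.8% in WT mice.

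**Figure D3:**
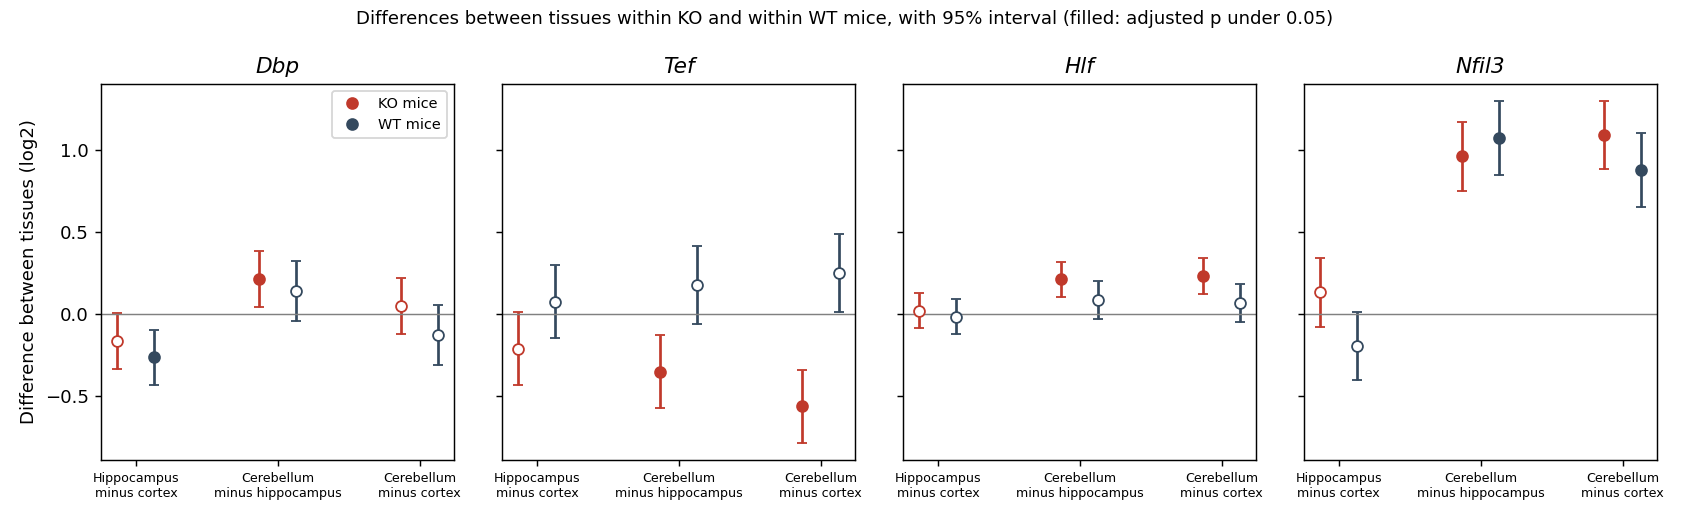
Log2 difference between tissues for each factor within KO mice and within WT mice, with the 95% interval from limma over all 6 groups. Filled points passed at an adjusted p under 0.05. *Nfil3* stands near 1 in both contrasts with cerebellum in both genotypes, and the contrasts of *Tef* with cerebellum lie below 0 in KO mice (-0.35 and -0.56) and above 0 in WT mice (0.17 and 0.25). *Hlf* was not well above background in KO hippocampus, and its points there show measured values (0.21 for cerebellum minus hippocampus) that still hold the background.

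The core clock genes from which these factors take their rhythm were examined by a list of 19 genes, 15 of them tested. In hippocampus 3 of 27 probes were higher in KO mice and 1 lower, or 14.8% beside 11.3% of all probes. *Ciart*, which encodes a repressor of CLOCK and BMAL1, was higher by 0.46 at 1 of its probes (limma adjusted p = 0.0093), while the other *Ciart* probe stood at 0.31 (adjusted p = 0.0992). *Per1*, a negative limb gene with E-boxes and a D-box, was higher by 0.36 at both of its probes (adjusted p = 0.011 and 0.0241). *Clock*, of the positive limb, was lower at 1 of its probes (-0.41, adjusted p = 0.00832). The signals of that probe were low, at 221 to 290.5 in KO and 258.9 to 318.6 in WT hippocampus. The brighter *Clock* probe, at 1393.1 to 2714.1 in KO and 1430 to 2150.1 in WT hippocampus, stood at -0.11 (limma adjusted p = 0.392). In cerebellum 7 of 29 probes were higher and 6 lower, or 44.8% beside 33.8% of all probes. The lowest p belonged to *Clock* (-0.63, adjusted p = 4.96e-05), *Ciart* (0.71 at 1 probe, adjusted p = 7.83e-05), *Nr1d1*, which encodes REV-ERBα (0.63, adjusted p = 0.00016), *Arntl* (-0.62, adjusted p = 0.000206) and *Per1* (0.61 and 0.50, adjusted p = 0.000507 and 0.00132), and 7 further probes passed. These counts of 4 and 13 were 0 and 7 in the unmoderated test, and 0 and 2 with the choroid plexus covariate. The drop was not particular to the clock list. All probes called numbered 1625 in hippocampus and 4667 in cerebellum, against 20 and 2497 in the unmoderated test and 30 and 380 with the covariate. The choroid plexus markers themselves were higher by a median of 1.64 in KO hippocampus and 0.95 in KO cerebellum. In cortex 0 of 29 passed by limma, which called 27 of all probes, and 0 by the unmoderated test, which called only 2 of all probes. There 6 had an unadjusted p under 0.05, a count with no share of all probes beside it. The median of the list was 0.01 in hippocampus, -0.01 in cortex and -0.05 in cerebellum, beside 0.00, -0.01 and 0.01 over all probes tested in those tissues. *Per1* and *Dbp* share E-box control. Each *Per1* probe had a KO effect that differed between hippocampus and cortex (0.59 and 0.52, adjusted p = 0.035 and 0.0366) and between cerebellum and cortex (0.84 and 0.67, adjusted p = 0.000369 and 0.00108), while these differences of *Dbp*, given above, did not pass.

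**Figure D4:**
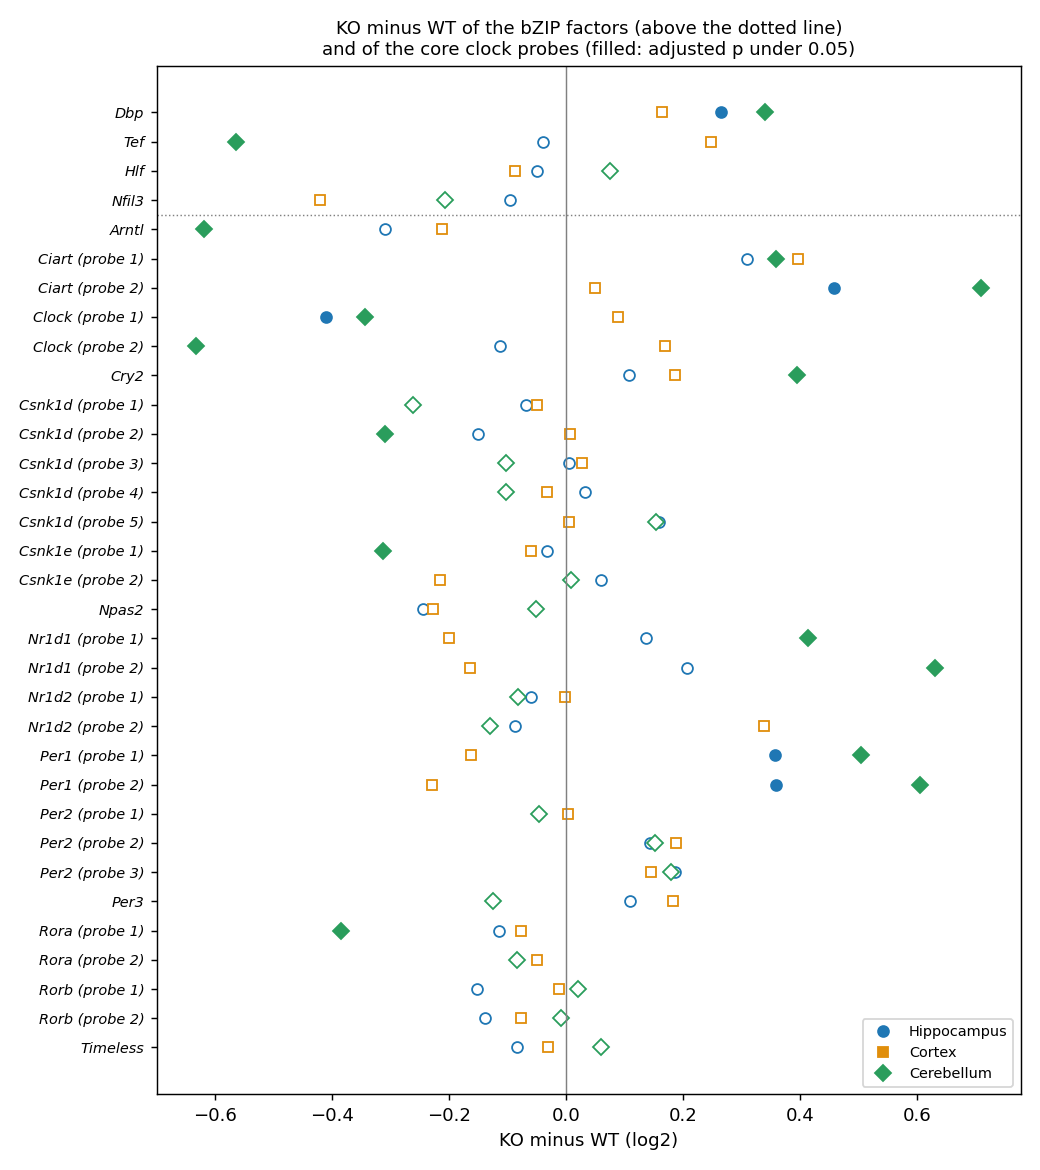
KO minus WT on the log2 scale for the 4 bZIP factors and for each tested probe of the core clock list, in hippocampus, cortex and cerebellum. Filled symbols passed at an adjusted p under 0.05. In cerebellum *Dbp* lies on the side of the filled symbols of *Per1*, *Nr1d1*, *Cry2* and *Ciart*. *Tef* lies there on the side of those of *Clock*, *Arntl*, *Rora*, *Csnk1d* and *Csnk1e*. No symbol is filled in cortex.

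The lists were also read by the element the genes carry, beside 11.3% of all probes called in hippocampus, 0.191% in cortex and 33.8% in cerebellum. The counts at an unadjusted p have no such share beside them. Of the genes with E-boxes that the clock uses, a list that includes *Dbp* and the targeted *Bhlhe40*, 3 of 10 probes were higher and 1 lower in KO hippocampus, 5 of 11 higher and 1 lower in KO cerebellum, and 1 of 11 lower in KO cortex. The lower probe was *Bhlhe40* in every tissue, and the higher ones were those of *Dbp*, *Per1* and, in cerebellum, *Nr1d1*. *Tef*, with CACGTG before both of its starts, was not on this list. Its KO minus WT was -0.56 in cerebellum, 0.25 in cortex and -0.04 in hippocampus (limma adjusted p = 0.000862, 0.449 and 0.833). Whether these letters bear on it was not tested. Of the genes with REV-ERB and ROR elements, a list that includes *Nfil3*, 1 of 5 probes was lower in hippocampus, 0 of 5 passed in cortex (3 with an unadjusted p under 0.05) and 3 of 5 were lower in cerebellum, all of *Clock* and *Arntl*. Its median was -0.24 in KO hippocampus, -0.21 in KO cortex and -0.34 in KO cerebellum. Of the genes with D-boxes, through which the 4 factors act, 2 of 12 probes were higher in hippocampus, 0 of 14 passed in cortex (2 with an unadjusted p under 0.05), and 4 of 14 were higher and 1 lower in cerebellum. The higher ones were *Per1* and *Nr1d1*, which carry E-boxes too, and the lower one was *Rora*, which encodes a receptor of the ROR family.

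Genes known to respond to the PAR factors in knockout mice were mostly too low to test, with 2 of their 10 probes tested. *Alas1*, the first enzyme of haem synthesis, was lower in KO cerebellum (-0.37, limma adjusted p = 0.00392) and stood at -0.15 in hippocampus (adjusted p = 0.313) and -0.11 in cortex (adjusted p = 0.728). *Pdxk*, pyridoxal kinase, differed by 0.15 in KO cerebellum (adjusted p = 0.0894), -0.09 in hippocampus (adjusted p = 0.447) and -0.03 in cortex (adjusted p = 0.926). Its signals lay near background, at 210.7 to 303.5 in KO and 171.3 to 218.6 in WT cerebellum. They were 196.9 to 255.2 in KO and 161.3 to 250 in WT hippocampus, and 167.1 to 206.1 in KO and 191 to 233.6 in WT cortex. A change of *Pdxk* would be understated at such signals. Other bZIP factors served as a comparison. Of 14 probes, 0 passed in hippocampus and cortex by limma, with 1 and 3 at an unadjusted p under 0.05, again without a share of all probes. In cerebellum *Cebpb* (0.70, adjusted p = 0.00017) and *Maf* (0.32, adjusted p = 0.0259) were higher and *Creb1* was lower (-0.36, adjusted p = 0.0181), or 21.4% of the list beside 33.8% of all probes.

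Over the 23 arrays, which share mice and dissections, the Pearson correlation of deviations from the group means was 0.26 between *Dbp* and *Tef*, -0.14 between *Dbp* and *Hlf*, -0.20 between *Dbp* and *Nfil3*, -0.40 between *Tef* and *Hlf*, -0.52 between *Tef* and *Nfil3* and -0.0016 between *Hlf* and *Nfil3*. The genes whose levels over the 23 arrays were most like *Dbp* were *Ppm1m*, *Fkbp2* and *Cxcl12* (r = 0.83, 0.83 and 0.82), and those most like it in deviations from the group means were *Mrpl53*, *Pgls* and *Apeh* (0.85, 0.80 and 0.79). For *Tef* they were *Atp6ap1*, *Ints3* and *Pick1* in levels (0.83, 0.82 and 0.81) and *Txndc5*, *Rnf112* and *Rnft2* in deviations (0.84, 0.77 and 0.75). For *Nfil3* they were *Epc1*, *Zcchc8* and *Lnx2* in levels, all at 0.95, and *Irf9*, *Adamts4* and *Ablim3* in deviations (0.82, 0.82 and 0.81). For *Hlf*, at its low signal, they were *Commd2*, *Dgkq* and *Ddx39b* (0.86, 0.86 and 0.84) and *Fbxo38*, *Pde3a* and *Cc2d1b* (0.79, 0.76 and 0.74). Each list is the top of 12222 probes compared and a description only, and no member of the core clock list was among them.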

How the data were processed

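Total RNA of each tissue was hybridized to 1 array, and samples were grouped by the tissue and genotype of their labels, with animal codes giving the tissues of 1 mouse. The authors deposited bead signals (intensity) and detection p-values from GenomeStudio 2011.1, without background subtraction, and Z scores of each array, which lay within 9.96e-05 of those recomputed here. Here the log2 signal was Z normalized per array and put back on a log2 scale with the arrays' mean SD, 1.57. Probes detected at p under 0.05 in at least 3 arrays of a tissue were tested with limma 3.58.1 in R 4.3.3 (lmFit, eBayes with a trend), adjusted by Benjamini-Hochberg over all probes of the tissue and called under 0.05. Contrasts over the 6 groups used the mouse as a random block (duplicateCorrelation) and the 12968 probes kept in every tissue. Every probe of the members was named, as were list probes that passed, at most 6 in a tissue, and the 3 genes of highest correlation. Symbols came from the platform annotation, with 23962 probes matched to the gene table, and 1719 probes carried none. Members and lists were chosen with earlier results of these data known. The p-values measure the spread between mice, and the number of arrays limits precision. Scripts were tested on simulated data. Alternatives were neqc (offset 16), quantile normalization, deposited Z scores, other detection filters, 1 value a gene, a replicate block, 1 fit of all groups, an unmoderated test, arrays or mice left out and, added later, the choroid plexus covariate.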

Additional observations from a re-analysis of the deposited data

Results flagged for a closer look

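In 2 of the 25 groups of 4 arrays that were checked, 1 mouse stood apart from the others, and chance alone would mark about 1 group in 20. *Tef* in KO cerebellum replicate 2 was at a level of 2.52, against 2.97 to 3.05 in the other KO mice, with a gap of 0.842 of the whole range. Without that array the KO minus WT difference of *Tef* in cerebellum was -0.44 (limma adjusted p = 0.00353). *Hlf* in WT hippocampus replicate 4 was at -0.94, against -0.85 to -0.83 in the other WT mice, with a gap of 0.853 of the range, and was not well above background in that array.

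The KO effect on *Tef* differed between cerebellum and cortex by -0.81 on the log2 scale (limma interaction contrast, adjusted p = 0.000392). *Tef* was lower in 4 of 4 KO mice than in any WT mouse in cerebellum, and above the highest WT mouse in 3 of 4 KO mice in cortex. The difference remained past the threshold with any 1 mouse left out. Choroid plexus markers were higher in KO cerebellum and not in KO cortex, as given above, and with their level as a covariate the difference was -0.88.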

How the results depend on the processing

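No alternative reversed a member difference that had passed its test, and the *Tef* contrast between cerebellum and cortex and the *Dbp* difference over the 3 tissues passed under all alternatives run on them. *Dbp* in hippocampus kept 0.27 but missed the threshold without a detection filter (adjusted p = 0.0673), with the replicate block (0.0521) and in the unmoderated test (0.122), and was 0.22 to 0.31 with 1 array left out. The unmoderated test also ended the cerebellum calls of *Dbp* (0.34, adjusted p = 0.0629) and *Tef* (-0.56, 0.0684), leaving 0 member probes called. It called 0 core clock probes in hippocampus and 7 in cerebellum, beside 20 and 2497 of all probes. With the choroid plexus covariate, chosen after the data were seen, 0 member probes were called in either tissue, 0 and 2 core clock probes in hippocampus and cerebellum, and 30 and 380 of all probes. *Dbp* was then 0.17 in hippocampus and 0.60 in cerebellum, *Tef* -0.86 in cerebellum and *Nfil3* -0.22 over the tissues. With 1 probe a gene, 1 core clock gene was called in hippocampus and 7 in cerebellum, and 7 with the mean of each gene's probes.

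With 1 array or mouse left out, *Dbp* in cerebellum was 0.25 to 0.42, *Nfil3* in cerebellum -0.32 to -0.12 and *Tef* in hippocampus -0.098 to 0.047 (0.047 without WT replicate 4 and 0.0074 without KO replicate 1). Member probes called were 0 to 1 in hippocampus and 1 to 3 in cerebellum, and core clock probes 0 to 1 in cortex, the 1 being without KO replicate 3. The KO effect on *Dbp* in cerebellum minus hippocampus was -0.01 to 0.12 (-0.0096 without KO mouse 4, -0.0040 without WT mouse 3). Between tissues of KO mice, *Tef* was -0.34 to -0.12 for hippocampus minus cortex, -0.42 to -0.24 for cerebellum minus hippocampus and -0.68 to -0.35 for cerebellum minus cortex (-0.35 without KO mouse 2), and *Dbp* 0.13 to 0.26 for cerebellum minus hippocampus and -0.0019 to 0.077 for cerebellum minus cortex. *Nfil3* in hippocampus was -0.15 to -0.035, and *Tef* was 0.16 to 0.32 in cortex and -0.16 to -0.064 over the tissues. The KO effect in hippocampus minus cortex was 0.02 to 0.17 for *Dbp* and -0.42 to -0.19 for *Tef*, that in cerebellum minus hippocampus -0.25 to -0.027 for *Nfil3*, and that in cerebellum minus cortex 0.095 to 0.24 for *Dbp* and 0.10 to 0.33 for *Nfil3*. In WT mice, hippocampus minus cortex was -0.33 to -0.19 for *Dbp* and -0.032 to 0.00046 for *Hlf*, and cerebellum minus cortex 0.21 to 0.32 for *Tef*.

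All probes called in cortex numbered 27, against 43 with the replicate block, 17 with the strict filter, 15 with gene means, 2 unmoderated, 44 without WT replicate 2 and 42 without KO replicate 3. In hippocampus they numbered 1625, against 20 unmoderated, 578 without WT replicate 4 and 594 without KO replicate 3, and in cerebellum 4667, against 2497. The replicate numbers are shared by different mice of each genotype, and same-numbered mice deviated with correlations of -0.34 to 0.28, so that the block pairs nothing known; it changed no member call but that of *Dbp* in hippocampus. *Hlf* and the second *Tef* probe were limited by signal near background.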
